A study of Mus musculus with 3 samples.

Results

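The 8 genes Hoxa5, Hoxa6, Hoxa7, Hoxb5, Hoxb6, Hoxb7, Hoxc5 and Hoxc6, which make up Hox paralog groups 5 to 7, were followed across the cell classes of the embryonic mouse kidney. They were chosen by name, with earlier results of these data known, and are 8 of the 32285 genes in the count matrices. Droplet single-cell RNA sequencing (10x Genomics, 3′ ends) had been performed on whole kidneys at E15.5 in 3 libraries. Enl-WT embryos were Enl +/+ Wt1 GFPCre/+. Enl-T1 embryos were Enl flox-T1/+ Wt1 GFPCre/+, so that Cre switched 1 Enl allele to the T1 form, in which 3 amino acids are inserted into the acyl-binding YEATS domain of the chromatin reader ENL. Enl-T1 TDI-11055 embryos had the Enl-T1 genotype and came from mothers given 100 mg/kg of TDI-11055, a small molecule that blocks this domain, from E10.5 to E14.5. The other libraries are titled as without treatment, while the treatment protocol names a vehicle as the alternative to the drug. All embryos, controls included, carried the Wt1 GFPCre allele, which takes the place of 1 copy of Wt1. The driver is described as active in the progenitors of both nephron and stroma. Each library pooled more than 1 embryo, and cells cannot be traced back to them.

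Hox genes encode homeodomain transcription factors that lie side by side in 4 clusters, Hoxa, Hoxb, Hoxc and Hoxd. Genes at the same place in different clusters form a paralog group, and those nearer one end of a cluster are in general switched on earlier and further towards the head than those nearer the other end. Groups 5 to 7 lie in the middle of the clusters and help to pattern the neck and chest region of the body axis. ENL is a chromatin reader of complexes that act in transcription elongation, and in leukaemias with MLL fusions these complexes keep genes of the Hoxa cluster active. In mouse genome build GRCm38, Hoxa5 (chromosome 6, 52201754 to 52204587), Hoxa6 (52206288 to 52208722) and Hoxa7 (52214491 to 52221854) lie on the minus strand. Hoxb7 (chromosome 11, 96286623 to 96290162), Hoxb6 (96292476 to 96301569) and Hoxb5 (96303336 to 96306121) lie on the plus strand, as do Hoxc5 (chromosome 15, 102967443 to 103017429) and Hoxc6 (102998257 to 103011881). The Hoxd cluster has no member of these groups. The last 500 exonic bases of Hoxa7, where 3′ counts arise, lie wholly under an exon of the antisense gene Hoxaas3, so Hoxa7 counts rely on the strand of the reads. Of the exonic bases of Hoxc5, 5.37% are shared with Hoxc10 on the same strand.

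The 3 Hoxa members were all higher in Enl-T1 in the NP1-like and Foxd1-like classes described further on, though not alike in every class. No RefSeq entry was found for the Hoxb and Hoxc members, so the 250 bases before the start site are shown for the Hoxa members only. These bases are from the minus strand of GRCm38.p6, written 5′ to 3′, with each CG pair in capitals. Entries for 3 of the 8 members were found in the RefSeq table.
Hoxa5: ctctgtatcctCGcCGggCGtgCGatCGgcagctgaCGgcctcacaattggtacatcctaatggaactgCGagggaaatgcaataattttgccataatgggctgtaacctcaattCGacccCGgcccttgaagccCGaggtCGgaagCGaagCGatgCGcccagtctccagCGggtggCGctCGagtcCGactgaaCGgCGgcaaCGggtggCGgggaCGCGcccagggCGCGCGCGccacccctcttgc
Hoxa6: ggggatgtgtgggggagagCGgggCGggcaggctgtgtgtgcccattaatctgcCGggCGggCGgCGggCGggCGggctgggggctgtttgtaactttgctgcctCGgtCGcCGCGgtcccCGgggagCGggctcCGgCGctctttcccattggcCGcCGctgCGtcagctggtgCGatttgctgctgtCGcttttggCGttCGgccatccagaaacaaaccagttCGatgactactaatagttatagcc
Hoxa7: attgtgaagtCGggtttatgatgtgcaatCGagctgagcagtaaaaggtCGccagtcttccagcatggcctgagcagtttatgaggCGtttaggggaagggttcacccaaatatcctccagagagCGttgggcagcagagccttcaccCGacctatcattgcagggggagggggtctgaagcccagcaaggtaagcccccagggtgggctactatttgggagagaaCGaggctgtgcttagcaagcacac
These windows are chr6:52204588-52204837 for Hoxa5, chr6:52208673-52208922 for Hoxa6 and chr6:52218574-52218823 for Hoxa7. The Hoxa7 window lies inside the longer gene span given above, since that annotation holds a start further upstream. The windows hold 28, 24 and 7 CG pairs, against a median of 6 over 32851 mouse promoters. Of all promoters, 7.61% have at least as many CG pairs as Hoxa5, 12% as many as Hoxa6 and 46.3% as many as Hoxa7. A high density of CG pairs was therefore found in the Hoxa5 and Hoxa6 windows and not in the Hoxa7 window, which covers its RefSeq start only. Any link between CG pairs and the levels in Enl-T1 was not tested.

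The libraries, in the order given, held 7186, 6575 and 6453 barcodes with 37221435, 63336586 and 76619303 unique molecular identifiers (UMIs). Barcodes with 1000 to 6000 genes and at most 10% mitochondrial UMIs were kept, which left 5233, 4144 and 2754 cells, with medians of 5090, 9391 and 16931 UMIs. Between 5 and 8 kept barcodes were shared by any pair of libraries. Ribosomal protein genes took a median of 16.5%, 26.8% and 27.8% of a cell's UMIs, and the median log2 ratio of Enl-T1 over Enl-WT over all genes was -0.34 in NP1-like cells, the shift against which ratios are read. Levels are UMIs summed over the cells of a class and scaled to 1000000 UMIs of that class (CPM). Where 3 values follow each other, they are in the order in which the libraries were introduced above. Each molecule gives 1 count whatever its length, and levels are compared between libraries and classes, not between genes. Each group is 1 library, so no test was possible, and every interval is a 95% interval for counting error alone. Mllt1, the gene that encodes ENL, had 30.4, 21.2 and 19.2 CPM in NP1-like cells of the 3 libraries, but 3′ counts cannot read the insertion and this checks nothing.

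In Enl-WT kidneys each Hox cluster had its own distribution. Classes were named from marker genes. NP1-like cells are those of clusters in which markers of self-renewing nephron progenitors scored highest, in most of these clusters only weakly, as given further on. Hoxb7, whose promoter is widely used to drive genes in the ureteric bud, had its highest Enl-WT level in ureteric tip-like cells (220 CPM, 208 to 233) and 167 CPM in medullary collecting duct-like cells. It had 128 CPM in distal tubule/loop of Henle-like cells, 47.9 in NP1-like cells and 12.3 in Foxd1-like stroma. Hoxb5, known for its part in the gut and its nerves, and Hoxb6 were also measured in both epithelia and progenitors, at 76.2 and 102.6 CPM in ureteric tip-like cells and 92.0 and 59.0 CPM in NP1-like cells. For Hoxb6 the distal tubule and ureteric tip levels (116, 105.5 to 127.7, and 102.6, 94.5 to 111.4) had overlapping intervals.

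The Hoxa members were at most 2.95 CPM in the Enl-WT ureteric epithelium. Hoxa5, which is needed for lung and airway development, had 66.5 CPM in distal tubule/loop of Henle-like cells, 60.9 in Foxd1-like stroma, 58.0 in NP1-like cells and 57.4 in endothelial-like cells of the Enl-WT library, levels whose intervals overlap, and 2.95 CPM in ureteric epithelium. Hoxa7, a classical target of MLL fusion proteins, had 70.8 CPM in distal tubule/loop of Henle-like cells, 40.8 in endothelial-like cells and 28.3 in NP1-like cells. Hoxa6 stayed at or below 15.3 CPM in every class of at least 50 Enl-WT cells. Hoxc6 and Hoxc5 were low in the epithelia other than podocyte-like cells. Hoxc6 had 97.6 CPM in NP1-like cells, 75.8 in podocyte-like cells and 75.8 in Foxd1-like stroma, but 4.56 in distal tubule/loop of Henle-like cells, 4.15 in endothelial-like cells and 2.59 in ureteric epithelium. Hoxc5 was highest in podocyte-like cells (13.1 CPM, 22 UMIs) and NP1-like cells (12 CPM, 57 UMIs).

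The ureteric epithelium, with its low Hoxa and Hoxc levels in these same data, was taken as the background class. Its low shares are therefore no separate result. Cells were thinned to 2000 UMIs, which left out 10 of 849 NP1-like and 28 of 1744 ureteric Enl-WT cells. A Hoxa5 UMI was then found in 10.8% of NP1-like cells (8.82 to 13.2) and 0.350% of ureteric cells (0.128 to 0.760) of that library, and without thinning in 26.5% and 1.66%. Median depth was 5091 UMIs in the NP1-like and 5229 in the ureteric cells of that library. In the others it was 11363 and 18745 in NP1-like cells and 11687 and 19318 in ureteric cells. Within the ureteric epithelium, Hoxa5 was at 18.6, 118 and 59.6 CPM in a cluster led by Vcan and Meis2 and rich in stromal genes, with 76, 34 and 11 cells in the 3 libraries. A doublet caller marked all but 7, 1 and 1 of them. Without marked doublets Hoxa5 had 0.904, 3.08 and 4.12 CPM in the ureteric epithelium.

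**Figure D1:**
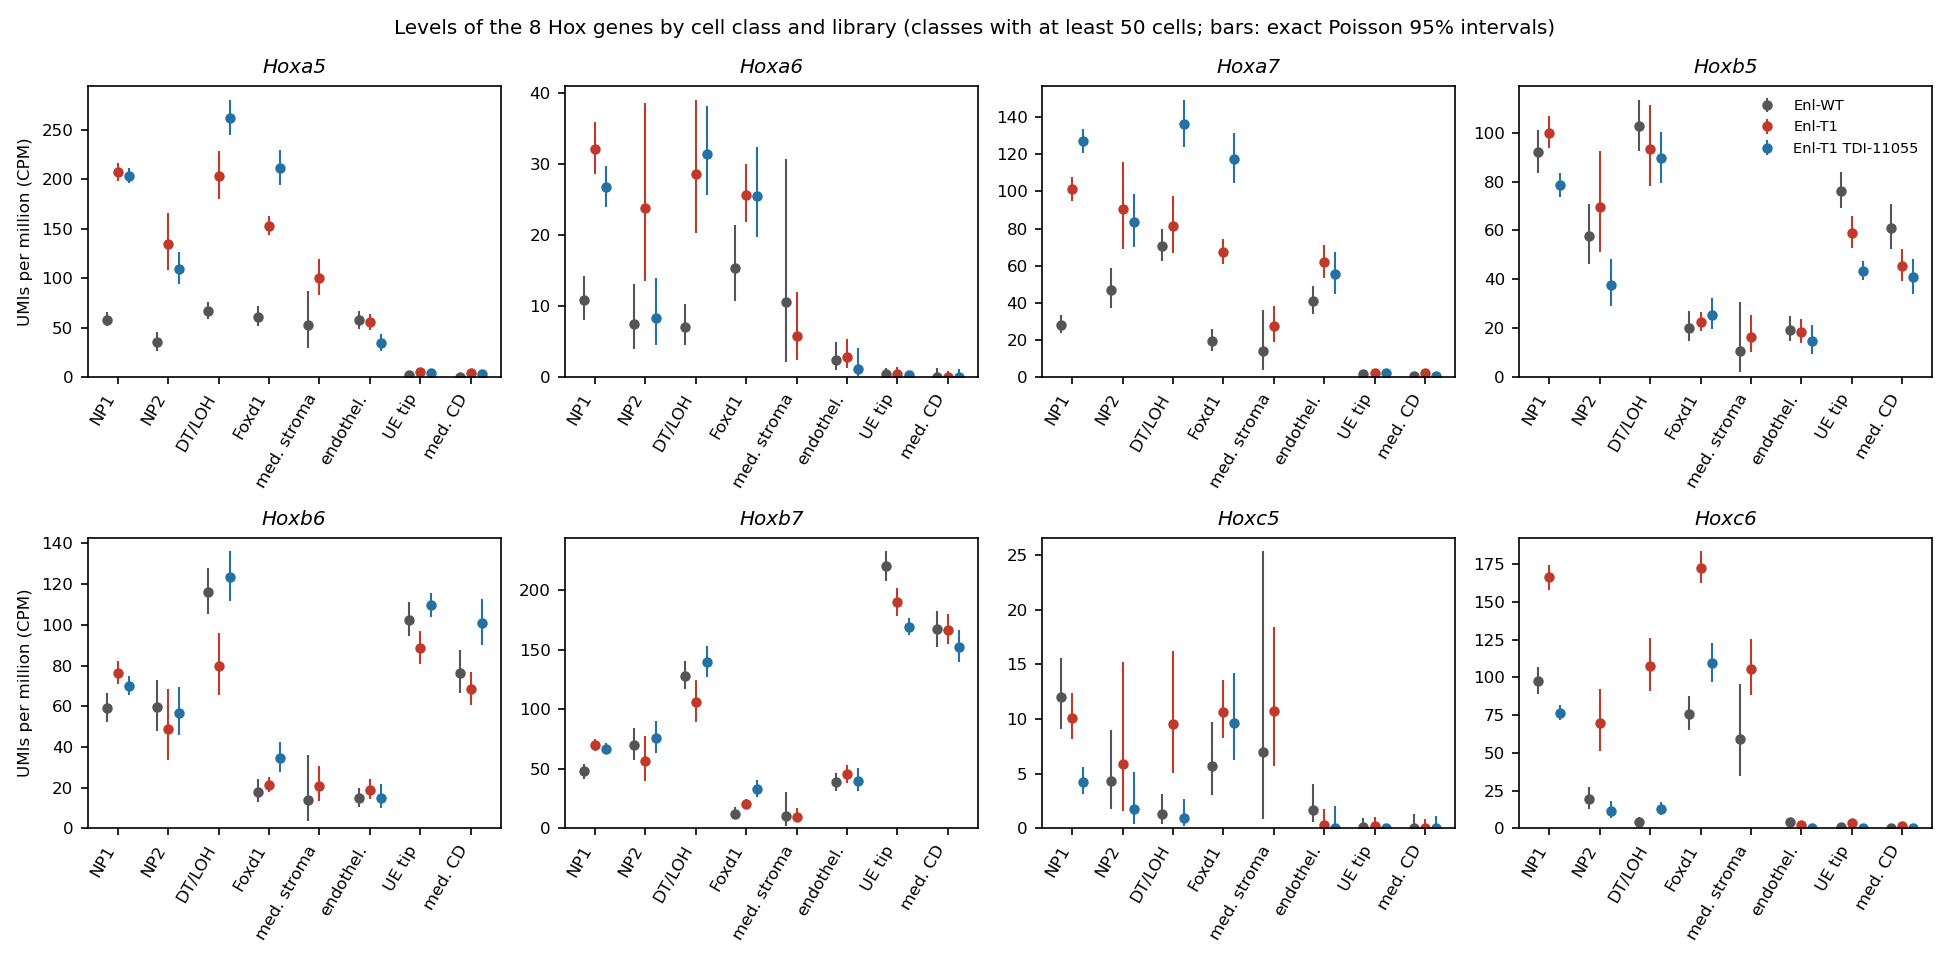
Level of each of the 8 genes (vertical axis, CPM) in 8 cell classes (horizontal axis) of the 3 libraries, with exact Poisson 95% intervals as bars; classes under 50 cells in a library are left out. Hoxa5 stands at 58.0, 207 and 204 CPM in NP1-like cells and near 0 in ureteric tip-like cells, while Hoxb7 is highest there.

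The first comparison set the Enl-T1 library beside the Enl-WT library in nephron progenitors. With 1 library per group, genotype cannot be told apart from library. In NP1-like cells (849, 775 and 732 cells) the Hoxa members were about 3 to 3.6 times higher in Enl-T1, Hoxc6 was 1.7 times higher, Hoxb7 was 1.46 times higher, and Hoxb5, Hoxb6 and Hoxc5 were within 1.4-fold. Hoxa5 had 58.0 CPM (275 UMIs) in Enl-WT and 207 (1950 UMIs) in Enl-T1, a ratio of 3.57 (3.15 to 4.07). Hoxa7 had 28.3 and 101 CPM, a ratio of 3.58 (2.99 to 4.33). Hoxa6 had 10.8 and 32.1 CPM, a ratio of 2.98 (2.21 to 4.10). The intervals of the 3 ratios overlap, so these neighbours cannot be ordered.

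In the Hoxc cluster the paralogs parted. Hoxc6, which helps to set the identity of thoracic segments, had 97.6 CPM in Enl-WT and 166 in Enl-T1, a ratio of 1.70 (1.53 to 1.89). Hoxc5 had 12 and 10.1 CPM, a ratio of 0.840 (0.598 to 1.19) whose interval holds 1. The Hoxb members lay between. Hoxb7 had 47.9 and 69.9 CPM (ratio 1.46, 1.25 to 1.71), Hoxb6 had 59.0 and 76.3 (1.29, 1.12 to 1.49), and Hoxb5 had 92.0 and 100.1 (1.09, 0.971 to 1.22). Of the 8 members 5 were past 1.4-fold higher, the limit of fold change in the study's methods, and 0 were past 1.4-fold lower. Of the 9834 genes with at least 5 CPM in this class, 7.82% were past 1.4-fold higher and 39% past 1.4-fold lower. The median log2 ratio of the members was 0.66, beside -0.34 over all genes. When the libraries were instead scaled so that the median gene did not differ, 6 members were past 1.4-fold higher and 0 lower (17.8% and 18.1% of all genes), Hoxb6 being the addition, the ratio of Hoxb5 became 1.37, and that of Hoxc5 turned to 1.06 (0.755 to 1.5).

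The NP1-like class held 4 clusters, led by Rspo3 and Cited1, by Hist1h2bc and Saa1, by the S-phase genes Rrm2 and Ccne2, and by the mitotic genes Ube2c and Nusap1. The first of these was 357 of the 849 Enl-WT cells and 185 of the 775 Enl-T1 cells, so clusters were also compared 1 by 1. None of the NP1 markers was among the 10 leading genes of the other clusters, which were named because these markers had the highest mean fold there, 1.11 to 1.44 against the rest of the nephron lineage. Within them the ratio of Enl-T1 over Enl-WT ran from 3.07 to 4.21 for Hoxa5, 2.76 to 3.50 for Hoxa6, 2.85 to 4.66 for Hoxa7 and 1.5 to 2.09 for Hoxc6. The Hoxa members and Hoxc6 were therefore past 1.4-fold higher in all 4 clusters. Hoxb5 ran from 0.990 to 1.33 and passed the limit in 0 of them, and Hoxc5 ran from 0.666 to 1.23 and was past 1.4-fold lower in 2.

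Markers moved with the groups in this class. The summed level of the 9 NP1 markers was 1645, 658 and 1190 CPM, with all 9 detected in each. Six2 had 166, 77.5 and 166 CPM, and Cited1 had 312, 65.1 and 193. The 10 stromal markers summed to 182, 131 and 82.3 CPM and the 10 endothelial markers to 23.0, 23.9 and 23.2. The part of the lower NP1 markers, or of cells of other lineages, in the Hox differences was not tested.

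The shares of cells with a UMI were ordered in the same way. In cells thinned to 2000 UMIs, Hoxa5 was detected in 10.8%, 32.9% (29.6 to 36.3) and 30.3% (27.0 to 33.8) of NP1-like cells. The ureteric shares of 0.350%, 1.80% and 0.990% at the same depth, marked doublets included, give the background. At least 1 of the 8 members had a UMI in 54.1% (50.7 to 57.5), 74.8% (71.6 to 77.8) and 64.4% (60.8 to 67.9) of the cells. At least 3 members had a UMI in 2.38%, 12.7% and 7.53% of the cells.

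**Figure D2:**
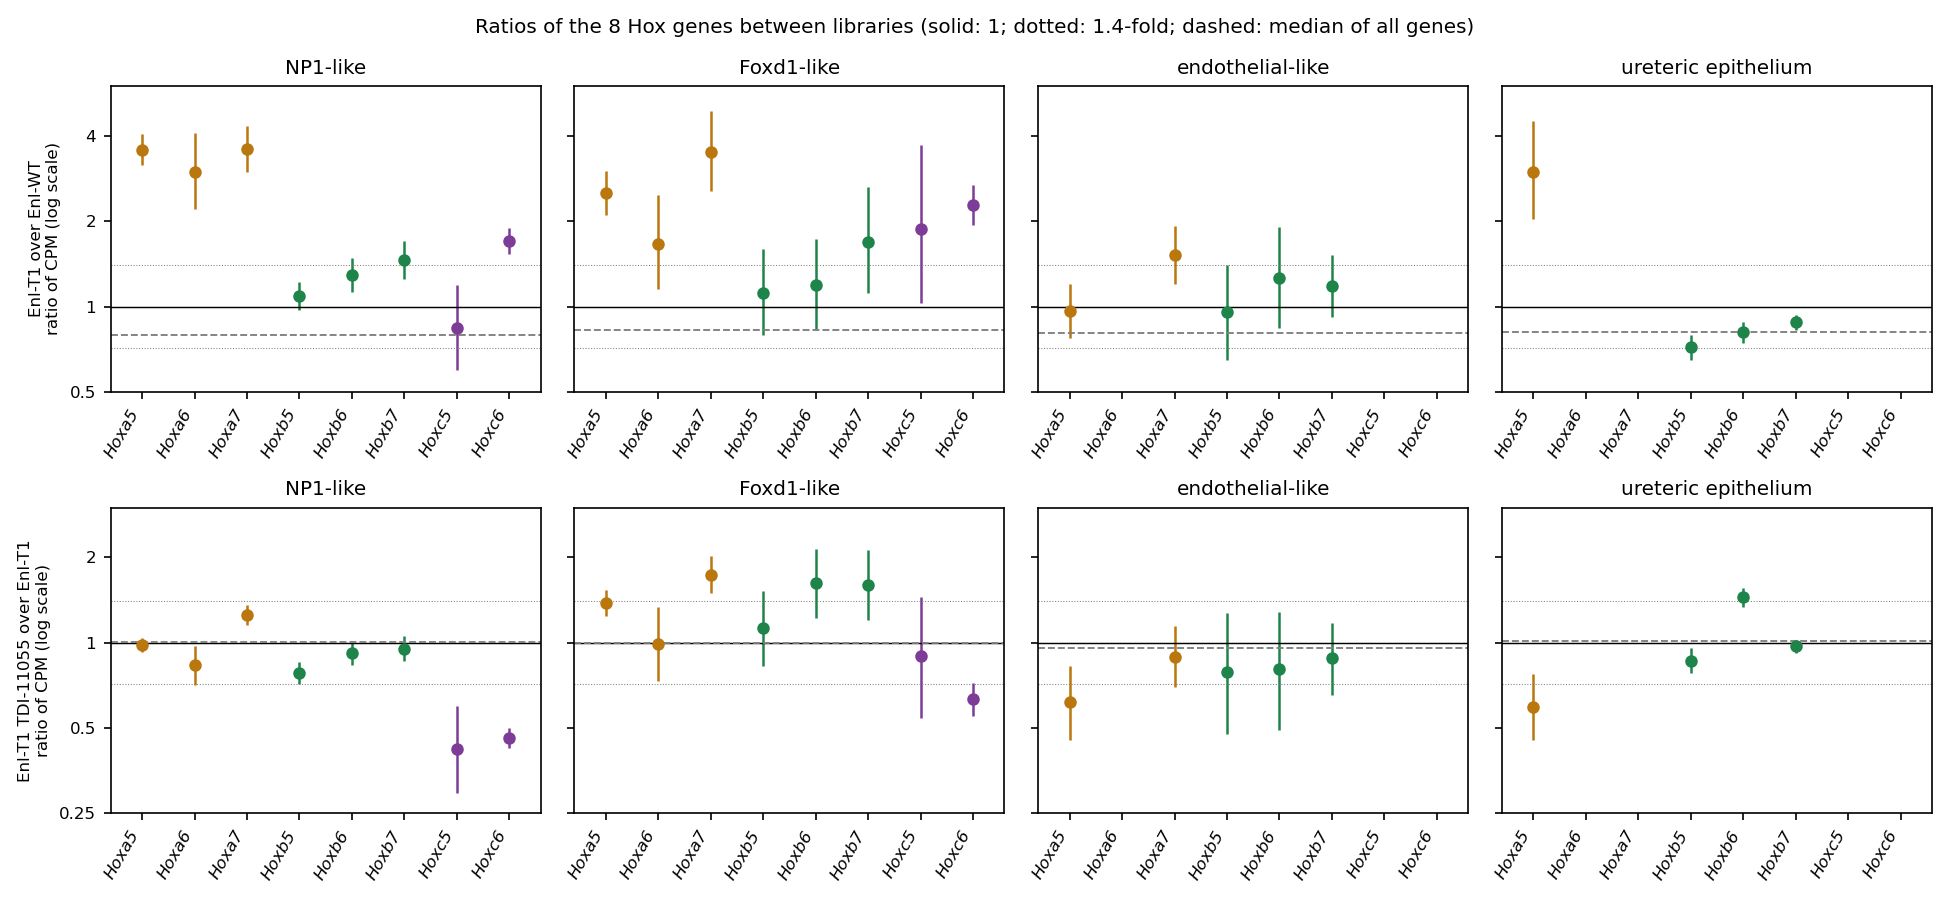
Ratio of CPM between libraries (vertical axis, log scale) for each member (horizontal axis) in 4 cell classes, with Enl-T1 over Enl-WT above and Enl-T1 TDI-11055 over Enl-T1 below; bars are exact 95% intervals, dotted lines mark 1.4-fold and the dashed line the median of all genes, and members under 5 CPM are left out. In NP1-like cells the 3 Hoxa members lie between 2.98 and 3.58 above, and Hoxc5 and Hoxc6 lie at 0.421 and 0.462 below.

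The stroma, the other lineage in which the Cre driver is active, was compared in the Foxd1-like class of 483, 711 and 207 cells. This class includes a cluster led by Lox and Clca3a1. The study takes Clca3a1 as a marker of cortical stroma, apart from Foxd1+ progenitors, so the class is not progenitors alone. Hoxa7 had 19.3 CPM in Enl-WT and 67.5 in Enl-T1, a ratio of 3.50 (2.56 to 4.89). Hoxa5 had 60.9 and 153 CPM (2.51, 2.10 to 3.02), and Hoxc6 had 75.8 and 173 (2.28, 1.94 to 2.69). As in NP1-like cells Hoxa7 and Hoxa5 had higher ratios than Hoxc6, but here the interval of Hoxc6 overlaps that of Hoxa7 and that of Hoxa5. Hoxc5 (5.70 and 10.7 CPM, ratio 1.87, 1.02 to 3.71), Hoxb7 (12.3 and 20.7 CPM, 1.69, 1.11 to 2.64) and Hoxa6 (15.3 and 25.6 CPM, 1.67, 1.15 to 2.48) were also past 1.4-fold higher. Hoxb5 and Hoxb6 had ratios of 1.12 (0.794 to 1.59) and 1.19 (0.832 to 1.73).

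In this class 6 of 8 members were past 1.4-fold higher and 0 lower, against 9.52% and 35.1% of all genes. Their median log2 ratio was 0.83, beside -0.28 over all genes. Among 4 Foxd1-like clusters of at least 50 cells in both libraries, Hoxa5, Hoxa7 and Hoxc6 were past the limit in 3, with lowest ratios of 1.27, 1.34 and 1.29. Hoxa6 was past it in 3 but at 0.668 (0.172 to 3.78, 10 and 3 UMIs) in the cluster led by Lox and Clca3a1, Hoxb7 was past it in 3 (0.922 to 2.51), Hoxc5 in 2 (1.00 to 2.12), and Hoxb5 ran from 0.387 to 1.48. The summed Foxd1 stroma markers were 856, 608 and 786 CPM. Haemoglobin and other erythroid genes summed to 1979, 1192 and 4316 CPM, whose part in the ratios was not tested. In ureteric stroma-like cells, with 46 Enl-WT and 234 Enl-T1 cells, Hoxa5 had 71.7 and 288 CPM and Hoxc6 71.7 and 264, and in medullary stroma-like cells Hoxa5 had 52.5 CPM (15 UMIs) and 100.0 CPM (121 UMIs).

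Along the nephron the members did not behave as 1 block. In NP2-like cells, named from markers of committed progenitors (209, 50 and 189 cells), Hoxa5 had 35.1 CPM in Enl-WT and 135 in Enl-T1 (ratio 3.84, 2.73 to 5.46), and Hoxc6 had 19.4 and 69.6 (3.59, 2.23 to 5.84). In distal tubule/loop of Henle-like cells (591, 112 and 241 cells) Hoxa5 had 66.5, 203 and 262 CPM. Hoxa7 had 70.8 and 81.1 CPM there in Enl-WT and Enl-T1, a ratio of 1.15 (0.909 to 1.43). That interval holds 1, whereas Hoxa5 had a ratio of 3.05 (2.56 to 3.64). Of the 7 members with at least 5 CPM there, 3 were past 1.4-fold higher and 1 (Hoxb6) lower, against 10.1% and 34.4% of all genes, and Hoxb6 was inside the limit under median-of-ratios scaling.

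Hoxc6 was nearly absent from Enl-WT distal tubule/loop of Henle-like cells, with 17 UMIs (4.56 CPM), 147 UMIs (107 CPM) in Enl-T1, and 42 UMIs (12.8 CPM) with TDI-11055. The ratio of Enl-T1 over Enl-WT was 23.6 (14.2 to 41.5), and that of TDI-11055 against untreated Enl-T1 cells 0.119 (0.0824 to 0.169). The class held 2 clusters. The ratios were 30.3 and 0.156 in the cluster led by Sim1 and Cxcl14, and 19.1 and 0.0771 in the cluster led by Slc12a1 and Sostdc1. Without marked doublets they were 24.5 and 0.133. Markers differed in this class too: the 11 distal markers summed to 2088, 814 and 965 CPM, Slc12a1 (the loop of Henle cotransporter) had 473, 62.1 and 79.5 CPM, and the 9 NP1 markers summed to 206, 209 and 196 CPM. Of the classes with fewer than 50 Enl-T1 cells, podocyte-like cells had 35.2, 314 and 478 CPM of Hoxa5 (224, 46 and 30 cells), and proximal tubule-like cells had 21.6, 161 and 205 CPM (276, 32 and 77 cells).

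The ureteric epithelium and the endothelium differed from these classes. In ureteric epithelium (1744, 1172 and 1021 cells) the Hoxb members made up 97.5%, 94.2% and 97.3% of the UMIs of the 8 genes. Hoxb7 had 189, 166 and 162 CPM, with an Enl-T1 over Enl-WT ratio of 0.878 (0.829 to 0.931). Hoxb5 had 67.9, 48.7 and 42 CPM (0.718, 0.648 to 0.795), and Hoxb6 had 88.6, 71.8 and 104 (0.811, 0.744 to 0.884). Under median-of-ratios scaling these ratios were 1.08, 0.882 and 0.997, so that the direction for Hoxb7 turned. Of the 4 members with at least 5 CPM there, 1 (Hoxa5, 2.95 and 8.81 CPM) was past 1.4-fold higher and 0 lower, against 7.4% and 34.5% of all genes. Hoxa5 reached the 5 CPM average only through its Enl-T1 level, so its calls in this class are not read as results. Without marked doublets it was below 5 CPM in every library, as given above. With TDI-11055 over Enl-T1, Hoxb6 was past 1.4-fold higher (1.45, 1.34 to 1.56, though inside the limit with at most 5% mitochondrial UMIs, at a log2 ratio of 0.34) and Hoxa5 past 1.4-fold lower (0.593, 0.453 to 0.773), against 11.6% and 12.9% of all genes. Without marked doublets the Hoxa5 ratio was 1.34 (0.910 to 1.98).

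The Hoxb members were also measured in separate parts of the ureteric tree. In ureteric tip-like cells, where new branches form (938, 407 and 619 cells), Hoxb5 had 76.2, 59.1 and 43.5 CPM, Hoxb6 had 102.6, 88.5 and 109.7 CPM, and Hoxb7 had 220, 190.0 and 170 CPM. In medullary collecting duct-like cells (335, 315 and 186 cells) Hoxb5 had 61.1, 45.4 and 40.8 CPM, Hoxb6 had 76.5, 68.3 and 101 CPM, and Hoxb7 had 167, 167 and 153 CPM. Hoxb5 was thus higher in Enl-WT than with TDI-11055 in both, with intervals that do not overlap. The Hoxb6 level with TDI-11055 lay above that of Enl-T1 in both, while its interval overlapped that of Enl-WT in the tip.

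In endothelial-like cells (394, 257 and 116 cells), where Hoxa members are also expressed, Hoxa5 had 57.4, 55.4 and 34.1 CPM. Its ratio of Enl-T1 over Enl-WT was 0.964 (0.776 to 1.2), which does not reach the interval of 3.15 to 4.07 in NP1-like cells. Hoxa7 had 40.8, 61.9 and 55.4 CPM, a ratio of 1.52 (1.2 to 1.92). Of the 5 members with at least 5 CPM only Hoxa7 was past 1.4-fold higher and 0 were lower, against 7.49% and 36.3% of all genes. Hoxc6 had 12, 8 and 0 UMIs in this class. A count of 0 in 116 cells allows up to 1.68 CPM when the limit is set at 3 counts, and 2.06 CPM by the exact Poisson interval.

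The second comparison set Enl-T1 kidneys exposed to TDI-11055 beside untreated Enl-T1 kidneys, and it shares the Enl-T1 library with the first. In NP1-like cells the Hoxc members were past 1.4-fold lower with the inhibitor and the Hoxa members were not. Hoxc6 had 166 CPM untreated and 76.7 CPM with TDI-11055, a ratio of 0.462 (0.426 to 0.501), below its Enl-WT level of 97.6. Hoxc5 had 10.1 and 4.25 CPM (0.421, 0.294 to 0.597), also below its Enl-WT level of 12. Both were past 1.4-fold lower in each of the 4 NP1-like clusters, with ratios of 0.402 to 0.525 for Hoxc6 and 0.230 to 0.682 for Hoxc5. Hoxa6 (lowest ratio 0.651) and Hoxb5 (lowest 0.587) were past 1.4-fold lower in 2 of the 4 clusters each, and Hoxa5 and Hoxa7 in 0. In cells thinned to 2000 UMIs a Hoxc6 UMI was found in 17.28% (14.78 to 20.01), 26.26% (23.19 to 29.51) and 10.55% (8.414 to 13.01) of NP1-like cells of the 3 libraries, with a ureteric background of 0.408%, 0.514% and 0.0990%. The share was highest in Enl-T1 and lowest with the inhibitor, and the 3 intervals do not overlap. Thinning keeps the scaling by total UMIs, so these shares are no separate evidence that Hoxc6 lay below Enl-WT. That place depends on the scaling, as given further on.

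Hoxa5, by contrast, had 207 and 204 CPM, a ratio of 0.983 (0.926 to 1.04). Hoxa6 had 32.1 and 26.7 CPM (0.831, 0.708 to 0.975). Hoxa7 had 101 and 127 CPM (1.26, 1.16 to 1.36) and so was further from Enl-WT with the inhibitor than without it. Hoxb5, Hoxb6 and Hoxb7 had ratios of 0.784 (0.716 to 0.858), 0.920 (0.832 to 1.02) and 0.953 (0.859 to 1.06). In all, 2 of 8 members were past 1.4-fold lower (10.8% of all genes) and 0 past 1.4-fold higher (9.66%). The median log2 ratio was -0.19, beside 0.01 over all genes.

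In Foxd1-like stroma Hoxc6 was again lower with TDI-11055, at 173 and 109 CPM (0.633, 0.553 to 0.722), but stayed above its Enl-WT level of 75.8. Hoxa7 had 67.5 and 117 CPM (1.74, 1.5 to 2.02), Hoxb6 had 21.4 and 34.6 (1.62, 1.23 to 2.14) and Hoxb7 had 20.7 and 33.1 (1.60, 1.2 to 2.12). These 3 members were past 1.4-fold higher and Hoxc6 past 1.4-fold lower, against 16.3% and 18.7% of all genes. In the 2 Foxd1-like clusters with at least 50 cells in both libraries, Hoxa7 (1.195 and 2.22) and Hoxb7 (1.398 and 4.03) were past the limit in 1 each, and Hoxb6 and Hoxc6 in both. Hoxa5 had 153 and 211 CPM (1.38, 1.24 to 1.54), just inside the limit. Over the 10 classes with at least 50 cells in both libraries Hoxc6 had no ratio above 1, and 7 of its 9 ratios below 1 had intervals below 1. Hoxa7 and Hoxb6 had intervals above 1 in 5 of these classes each and below 1 in 0, while Hoxa5 had 3 above and 3 below.

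In distal tubule/loop of Henle-like cells the inhibitor library had 262 CPM of Hoxa5 beside 203 in untreated Enl-T1 (1.29, 1.12 to 1.48). Hoxa7 had 136 beside 81.1 CPM (1.68, 1.36 to 2.08), and Hoxb6 had 124 beside 79.7 (1.55, 1.25 to 1.94). Hoxc5, with 3 beside 13 UMIs, had a ratio of 0.0962 (0.0176 to 0.350), and like Hoxc6 it was lower while the Hoxa members were not.

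With Enl-T1 TDI-11055 over Enl-WT, which uses the same libraries a further time, NP1-like cells had ratios of 3.51 (3.10 to 3.99) for Hoxa5, 2.48 (1.84 to 3.40) for Hoxa6 and 4.5 (3.77 to 5.41) for Hoxa7. Hoxc6 and Hoxc5 had ratios of 0.786 (0.702 to 0.880) and 0.354 (0.238 to 0.525). Of the 8 members 3 were past 1.4-fold higher and 1 lower, against 8.92% and 41.1% of all genes. Under median-of-ratios scaling Hoxc6 had 0.980 (0.876 to 1.10), so that its place below Enl-WT depends on the scaling, and that of Hoxc5 (0.441, 0.297 to 0.654) does not.

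The makeup of the summed member UMIs does not depend on scaling between libraries. In NP1-like cells the Hoxa members made up 23.9% (22.0 to 25.9), 44.6% (43.5 to 45.8) and 54.7% (53.6 to 55.8) of it. The Hoxc members made up 27.0%, 23.1% and 12.4%, and the Hoxb members 49.0%, 32.3% and 32.9%. In Foxd1-like stroma the Hoxa share was 42%, 49.8% and 62.5%. In endothelial-like cells it was 56.1%, 58.4% and 56.4%, with overlapping intervals.

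**Figure D3:**
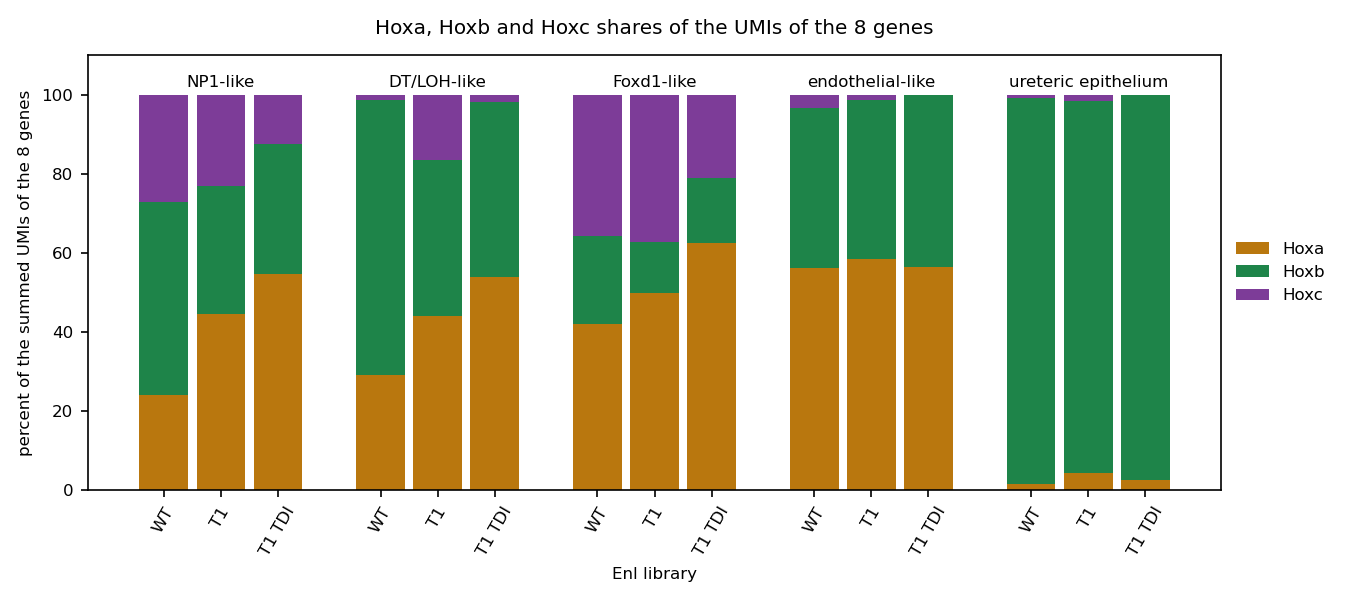
Percent of the summed UMIs of the 8 genes (vertical axis) that came from Hoxa, Hoxb and Hoxc members, as stacked bars for each library in 5 cell classes. The Hoxa share in NP1-like cells is 23.9%, 44.6% and 54.7%, and the ureteric epithelium is over 94% Hoxb in every library.

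The other 31 Hox genes give the setting. In NP1-like cells 24 of them had at least 5 CPM, with a median log2 ratio of Enl-T1 over Enl-WT of 0.97. Of these, 21 were past 1.4-fold higher and 1 (Hoxb8) lower, against 7.82% and 39% of all genes. Hoxb8 was inside the limit under median-of-ratios scaling, at 0.867. By cluster the medians of these others were 1.26 for Hoxa, 0.41 for Hoxb, 0.85 for Hoxc and 0.97 for Hoxd, beside 1.84, 0.37 and 0.26 for the Hoxa, Hoxb and Hoxc members. With TDI-11055 over Enl-T1 all 5 other Hoxc and all 7 Hoxd genes measured were past 1.4-fold lower, like Hoxc5 and Hoxc6. Of the 6 other Hoxa genes 0 were, and over all genes 10.8% were. Hoxa3, picked out after its values were seen, lay just inside the limit (0.716, 0.647 to 0.793). Under median-of-ratios scaling it was past the limit, at 0.708. Of the 6 other Hoxb genes 2 were past 1.4-fold higher (9.66% of all genes), Hoxb1 (7.47, 5.83 to 9.72) and Hoxb2 (2.01, 1.87 to 2.16). These 2 were named after their values were seen. Hoxb1 had 1.265, 7.33 and 54.8 CPM in the 3 libraries, with 6 UMIs in Enl-WT. It reached the 5 CPM average only through the TDI-11055 library. Its calls, also that among the 21 higher in Enl-T1, are therefore not read as results.

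**Figure D4:**
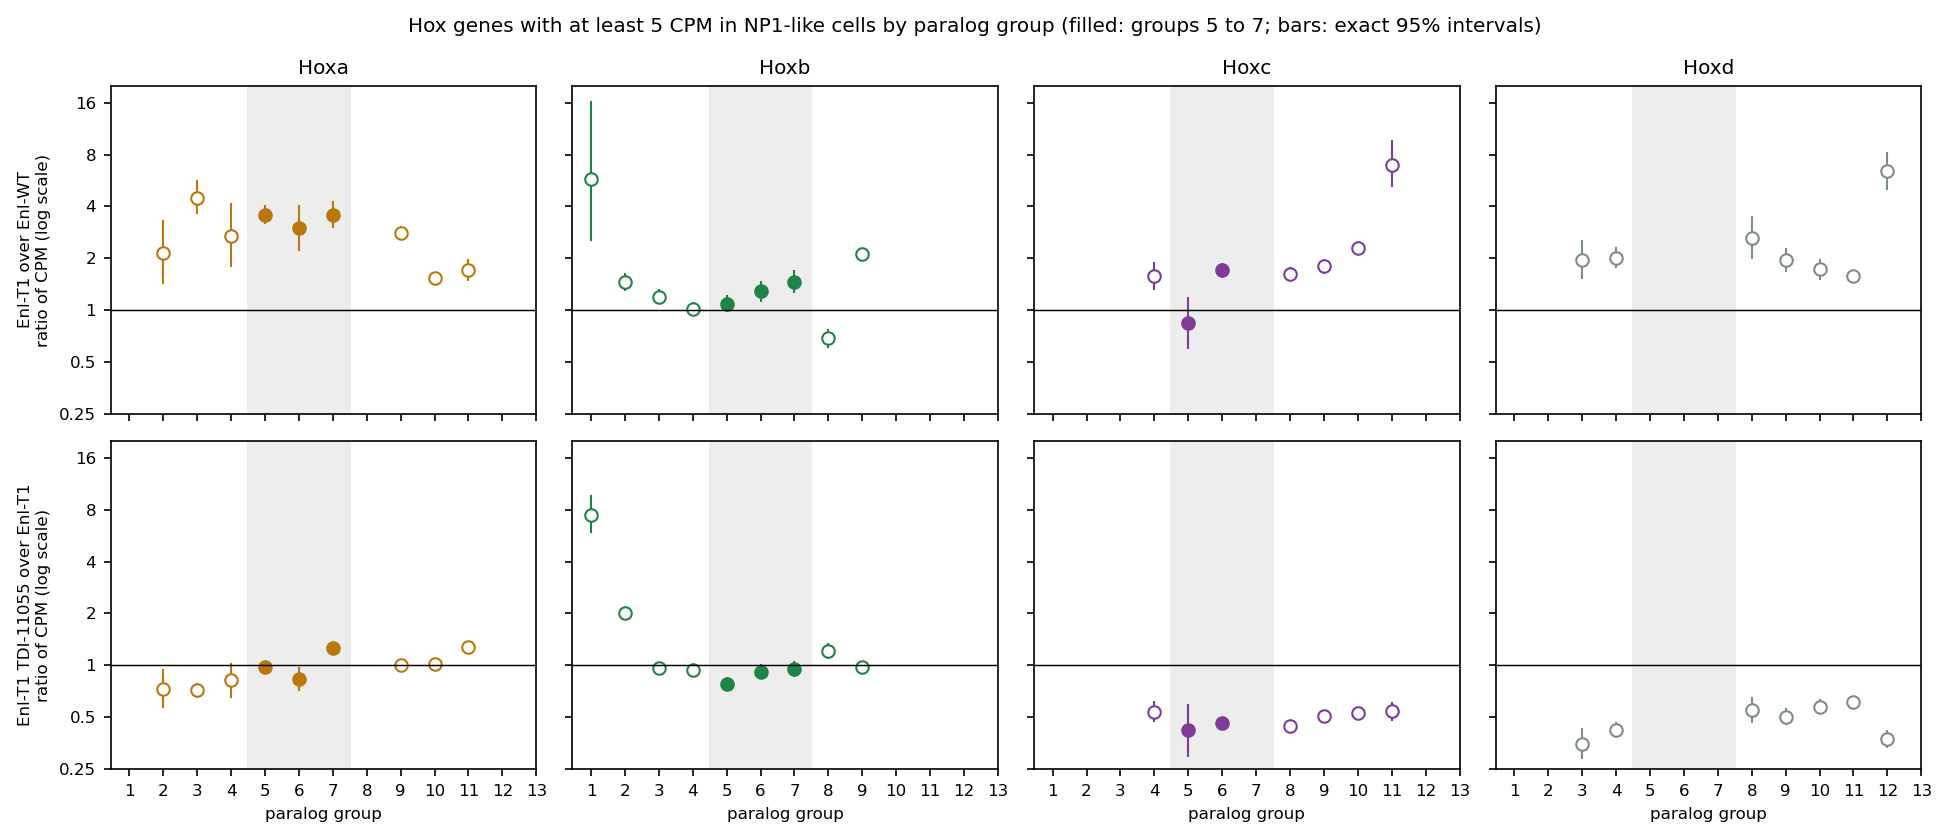
Ratio of CPM in NP1-like cells (vertical axis, log scale) for the Hox genes with at least 5 CPM by paralog group (horizontal axis) in each Hox cluster, with Enl-T1 over Enl-WT above and Enl-T1 TDI-11055 over Enl-T1 below; filled points are groups 5 to 7 and bars exact 95% intervals. Below, the Hoxc and Hoxd points all lie under 1, while Hoxa5 (0.983) and the Hoxb members (0.784 to 0.953) lie nearer to 1.

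Hox proteins bind DNA together with cofactors of the TALE class of homeodomain proteins. Of 9 TALE genes 8 passed the minimum of 5 CPM, and in Enl-T1 over Enl-WT NP1-like cells 0 were past 1.4-fold higher and 4 lower, beside 39% lower over all genes, with a median log2 ratio of -0.49. With median-of-ratios scaling 1 was past 1.4-fold lower, beside 18.1% of all genes, so this count follows the scaling and is no result about these genes. The antisense genes among the members were higher. Hoxb5os, which runs opposite to Hoxb5 and Hoxb6, had 32.3, 164 and 223 CPM in NP1-like cells, with an Enl-T1 over Enl-WT ratio of 5.09 (4.31 to 6.05). Hoxb5 itself had a ratio of 1.09 in the same cells. Hoxaas3 had 2.32, 20.5 and 16.1 CPM, a ratio of 8.84 (4.83 to 18). In ureteric epithelium Hoxb5os had 16.5, 20.4 and 19.6 CPM.

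Across the 41 combinations of class and library with at least 50 cells, the genes with the most similar log2(CPM + 1) profiles were mostly from the same Hox cluster. Hoxa5 was most like Hoxa9 (Pearson r = 0.953), Hoxa3 and Hoxa10. Hoxa7 was most like Hoxa9 (0.934), and Hoxa6 most like Hoxa3 (0.915). Hoxc6 was most like Hoxc10 (0.976), Hoxc8 and Hoxc9, and Hoxc5 most like Hoxc4 (0.905). Hoxb5 was most like Hoxb3 (0.919), Hoxb7 most like Hoxb8 (0.936), and Hoxb6 most like Pax2 (0.875), a regulator of nephron and ureteric lineages, followed by Hoxb7. Within a paralog group Hoxa and Hoxb profiles differed, with r = -0.02 for Hoxa5 and Hoxb5 and -0.42 for Hoxa7 and Hoxb7. For Hoxa6 and Hoxb6 it was -0.12. Hoxa and Hoxc profiles were more alike, with r = 0.69 for Hoxa5 and Hoxc5 and 0.85 for Hoxa6 and Hoxc6. Between Hoxb5 and Hoxc5 it was 0.13, and between Hoxb6 and Hoxc6 -0.32. The 41 points share libraries, depth and nested classes, so these values describe them and were not tested.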

How the data were processed

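Per the labels, kidney cells were profiled by 10x 3′ single-cell RNA sequencing. The authors deposited filtered matrices of raw UMI counts per gene and barcode, made with Cell Ranger 6.1.2 on mm10 according to the submitters' processing notes. Cells with 1000 to 6000 genes and at most 10% mitochondrial UMIs were kept. They were clustered in Seurat 5.3.0 (30 components, resolution 0.5, then 20 components, resolution 0.8 within lineages) with Hox genes left out, and clusters were named from marker lists by a scoring rule set after the clusters were seen. Counts were summed per class and library and given as CPM (Python 3.11.15, scanpy 1.11.5, scipy 1.17.1). Levels have exact Poisson, ratios exact conditional and shares Clopper-Pearson 95% intervals, which cover counting error only. With 1 library per group there is no test. Genes with at least 5 CPM on average entered counts past 1.4-fold, and the scripts were tested on simulated data. The genes named are all 8 members, the listed Hox, TALE, antisense and marker genes, and the 3 genes most like each member. Members and lists were chosen with earlier results of these data known. Doublets were kept in the main values. The caller's own threshold marked 0 barcodes in the Enl-T1 TDI-11055 library, so an alternative left out the highest-ranked cells, 302, 178 and 70 of the kept cells. Alternatives also changed scaling, mitochondrial limit, resolution, thinning and the genes used for clustering.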

Additional observations from a re-analysis of the deposited data

Results flagged for a closer look

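Hoxa5 moved in opposite directions between classes when Enl-T1 TDI-11055 was set over Enl-T1. The ratio of CPM was 1.38 in Foxd1-like stroma, 0.593 in ureteric epithelium and 0.616 in endothelial-like cells (0.453 to 0.829). With 1 library per group the difference between classes was not tested. In the ureteric epithelium Hoxa5 was at 8.81 and 5.22 CPM, and without marked doublets the ratio there was 1.34. Of these 3 classes, endothelial-like cells then held the opposite direction alone.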

How the results depend on the processing

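No paired analysis was possible because each group has 1 library, and no library could be left out. The median log2 ratio of the members in NP1-like cells, Enl-T1 over Enl-WT, was 0.99 with median-of-ratios scaling and 0.90 with totals without mitochondrial, ribosomal and haemoglobin genes. With TDI-11055 against untreated Enl-T1 it was 0.027 in the Hist1h2bc/Saa1-led cluster alone and -0.49 in the Ube2c/Nusap1-led cluster alone. The share of NP1-like cells with any member was 76.2%, 90.9% and 86.6% after thinning to 4000 UMIs and 81.9%, 98.3% and 92.5% without thinning. Without marked doublets the makeup of ureteric epithelium was 0.448% Hoxa, 99.4% Hoxb and 0.196% Hoxc in Enl-WT, 1.55%, 97.97% and 0.477% in Enl-T1, and 2.12% Hoxa and 97.8% Hoxb in Enl-T1 TDI-11055. That of endothelial-like cells was 60.5% Hoxa and 1.69% Hoxc in Enl-WT and 0.353% Hoxc in Enl-T1. The log2 ratio of Hoxa5 in ureteric epithelium, Enl-T1 TDI-11055 over Enl-T1, turned to 0.42 without them. The cause was not tested. Of 50 single-member ratios, 50 moved by less than their interval with Hox genes in the clustering, 50 at resolution 1.2 and 49 without marked doublets. More moved with median-of-ratios scaling (11), at most 5% mitochondrial UMIs (9) and totals without mitochondrial, ribosomal and haemoglobin genes (7). With median-of-ratios scaling Hoxb7 in ureteric epithelium, Enl-T1 over Enl-WT, went from a log2 ratio of -0.19 to 0.11. The mitochondrial limit put Hoxb6 in ureteric epithelium, TDI-11055 against untreated Enl-T1, inside 1.4-fold at a log2 ratio of 0.34. Single clusters and doublet removal were chosen after seeing the data.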
